A study of Homo sapiens with 6 samples.

Results

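Cytokinesis is the last step of cell division, in which an actomyosin ring pinches the cell between the separated chromosomes and the remaining bridge is cut. The RNAs of 9 genes of this step were followed in ARPE-19 cells, an established human retinal pigment epithelial line, after knockdown of the translation initiation factor EIF1. The genes are ANLN, ECT2, RACGAP1, SHCBP1, PRC1, CIT, CEP55, INCENP and CDCA8. They were chosen by name for their role, with earlier results of these data known, and so carry no independent support. All 9 were found among the 30618 genes of the count table and passed the filter on low counts.

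In both groups the cells were kept in 50 mM glucose, used as a model of diabetic hyperglycemia and without an osmotic control. The NC group received a non-targeting control siRNA and the siEIF1 group an siRNA against EIF1, with 3 biological replicates each. The methods print a single EIF1 siRNA sequence, so effects of losing EIF1 and other effects of that siRNA cannot be told apart here. The libraries held 26499929 to 31431479 counts. EIF1 itself had an FPKM of 281.08 to 294.35 in the NC libraries and of 22.68 to 24.28 in the siEIF1 libraries, a log2 fold change of -3.58. Of the pigment epithelium markers, BEST1, OTX2, MITF, KRT8 and KRT18 had at least 1369 counts in every library. LRAT had 21 to 38 counts, PMEL 25 to 40 and TYR 0 to 2, and RPE65 was not found by its symbol in the count table. Of the 8 markers tested, 3 rose (KRT8, KRT18 and RLBP1, a retinoid carrier with 11 to 49 counts) and 5 did not pass, where 10.2% of all tested genes rose with an adjusted p under 0.05 (edgeR).

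As background, the division plane is set by the microtubules left between the separating chromosomes, which PRC1 crosslinks into a central spindle. Centralspindlin, made of RACGAP1 and the motor KIF23, recruits ECT2, which activates the GTPase RhoA at the cortex. ANLN (anillin) ties the contractile ring to the membrane, citron kinase (CIT) keeps the midbody in order, and CEP55 brings in the machinery that cuts it. The chromosomal passenger complex, in which INCENP and CDCA8 (borealin) join the kinase AURKB with BIRC5 (survivin), acts from the centromere first and the midzone later. Many of these genes are transcribed mainly in late G2 and mitosis, and their promoters often carry a short element called CHR.

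Such an element was looked for in the promoters of these genes. The CHR letters TTTGAA, read on both strands, were searched in the RefSeq promoter windows (GRCh38.p14), which run from 250 bases before to 50 bases after a gene's start. Windows were matched by symbol for 8 of the 9 genes, namely all but RACGAP1, and ECT2 has 2 of them. TTTGAA was found in all 9 windows, against 15.2% of the 35116 windows of the same length in the table. The stretches below show, for each gene, the match closest to the start among those lying wholly before it, or the only match for SHCBP1, which lies at positions 15 to 20 of the transcript. For ECT2 the window of the first start was used. Positions are counted from the RefSeq start, which can differ from the end of the GENCODE gene given further on. Capitals mark the match. It reads TTCAAA where the element lies on the other strand, as in CEP55 and CIT.

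SHCBP1, chr16:46621348-46621377, minus strand: cgtccgcggaaaTTTGAAatggctgacggg
CDCA8, chr1:37692481-37692510, plus strand: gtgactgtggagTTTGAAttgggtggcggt
CEP55, chr10:93496484-93496513, plus strand: tactctccgcccTTCAAAggcggcagccaa
CIT, chr12:119877511-119877540, minus strand: gtaaccgccaatTTCAAActtccaagacct
PRC1, chr15:90994538-90994567, minus strand: cccgtggcgcggTTTGAAattttgcggggc
ANLN, chr7:36389830-36389859, plus strand: ctgaaattcaaaTTTGAAcggctgcagagg
ECT2, chr3:172750599-172750628, plus strand: tcgttgggcttaTTTGAAacacacgcacaa
INCENP, chr11:62123989-62124018, plus strand: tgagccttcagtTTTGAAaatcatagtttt

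The sequences run 5′ to 3′ along each gene and are listed from the lowest log2 fold change to the highest. The element was present at both ends of that list: in SHCBP1, which fell most, and in INCENP, for which no difference was found. The printed match began at position -20 in ANLN and PRC1, -23 in CDCA8 and -10 in INCENP. It lay farther from the start in CEP55, CIT and ECT2, beginning at -116, -208 and -115. In ANLN a second match on the other strand stood directly before the first. The windows used for CEP55, CIT and ECT2 also held a second match, not printed. It lay at positions -3 to 3 in CEP55, 11 to 16 in CIT and 35 to 40 in ECT2. The CCAAT box, searched as CCAAT on both strands, was found in windows of 7 of the 8 genes (all but ANLN), against 34.6% of all windows. In CDCA8 a CCAAT match shares a base with the CHR match. The E2F letters TTTGGCGC, TTTCCCGC, TTTCGCGC and TTTGCCGC, searched on both strands, were found in none of the 9 windows, against 3.31% of all windows. At so low a share, 9 windows are too few to show that these letters are rarer here. These are matches of letters, and no binding was measured. The genes were chosen for their role with earlier results of these data known. A link between these letters and the effect of the knockdown was not tested.

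**Figure D1:**
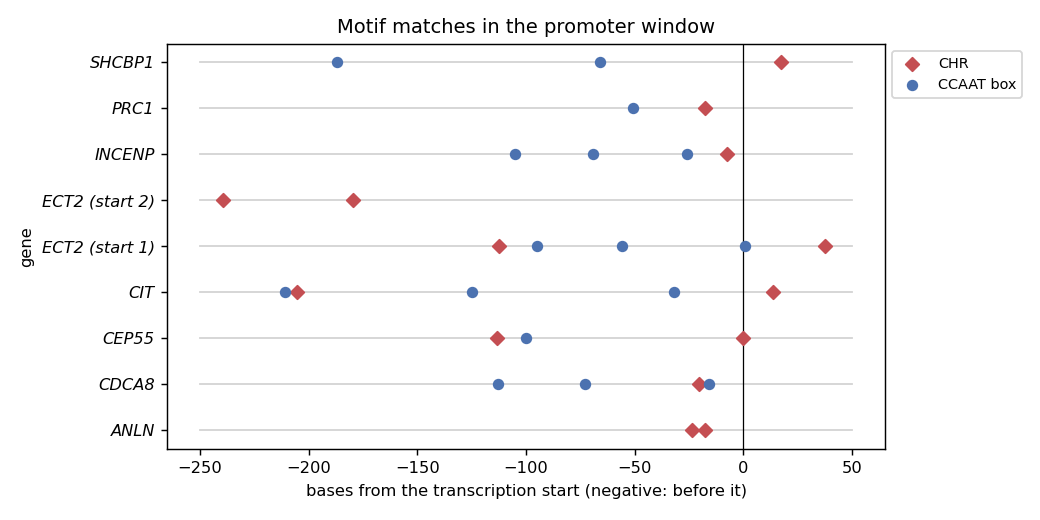
Positions of CHR (red diamonds) and CCAAT (blue circles) matches in the promoter windows of 8 genes, in bases from the transcription start; ECT2 has windows at 2 starts. A CHR match is present in every window, and in ANLN, CDCA8, INCENP and PRC1 the matches lie between positions -26 and -5.

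The RNAs of this group were lower after EIF1 knockdown, with INCENP as the exception. The test was edgeR's quasi-likelihood test over 16749 genes with Benjamini-Hochberg adjustment, and calls needed an adjusted p below 0.05 and more than a 2-fold difference. Of the 9 genes, 6 were called lower (SHCBP1, CDCA8, CEP55, CIT, PRC1 and ANLN), against 1.31% of all tested genes. With no limit on the fold change, 8 had an adjusted p under 0.05 and were lower, against 10.4% of all tested genes. In 8 of them the groups did not overlap in CPM, the counts scaled for library depth, with siEIF1 below NC, as in 18.9% of all tested genes. The median log2 fold change was -1.24 over the 9 genes and 0.0033 over all tested genes. The fall was not particular to genes of this step. RPA2 and RFC4, genes of DNA replication picked for profiles near that of the 9 genes, were at -1.28 and -1.15. Fewer dividing cells and less RNA in each such cell cannot be told apart in these bulk libraries.

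**Figure D2:**
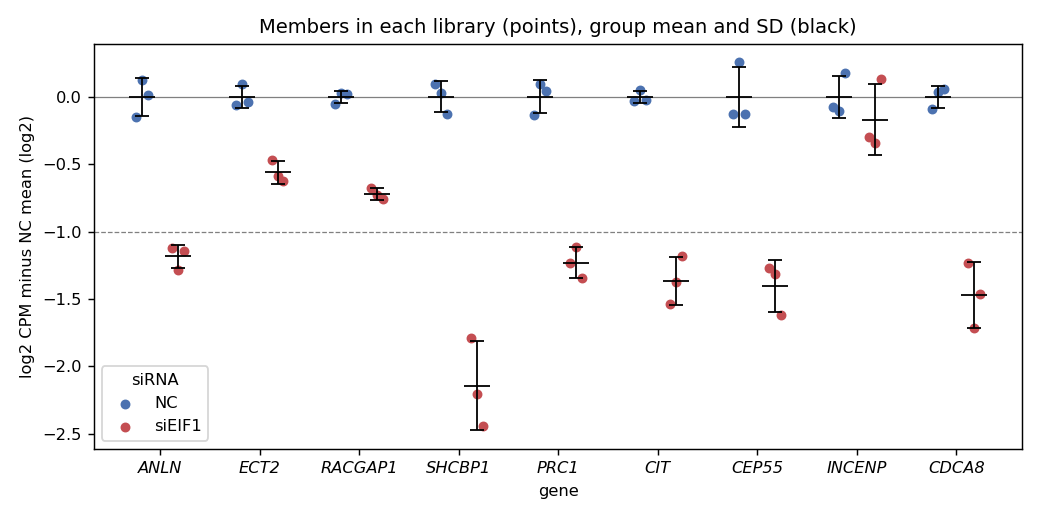
Log2 CPM of 9 genes in each library, minus the mean of the 3 NC libraries; points are libraries, black bars are the group mean and SD, and the dashed line marks a fold change of 0.5. All siEIF1 points lie below all NC points except for INCENP, where they overlap.

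The furrow genes ECT2 and ANLN both fell, but to different extents. ECT2 (ENSG00000114346.14), the exchange factor that switches on RhoA, lies on the plus strand at chr3:172750682-172821474, and its canonical transcript has 25 exons. It had CPM values of 18.1, 20.1 and 18.4 in the NC libraries and of 13.6, 12.5 and 12.2 in the siEIF1 libraries. The groups did not overlap, and the log2 fold change was -0.56 (standard error 0.0776; edgeR quasi-likelihood test, adjusted p = 2.24e-04), short of the fold change limit. ANLN (ENSG00000011426.11), the scaffold that binds actin, myosin and septins at the furrow, lies on the plus strand at chr7:36389821-36453791 with 24 exons. Its CPM values were 11.5, 13.9 and 12.9 in NC and 5.82, 5.19 and 5.73 in siEIF1. The highest siEIF1 value was far below the lowest NC value. ANLN stood at 43.6% of the NC mean, a log2 difference of -1.20 (standard error 0.103; edgeR, adjusted p = 4.25e-06).

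RACGAP1 and SHCBP1 are linked through centralspindlin, since SHCBP1 binds RACGAP1 at the midbody. RACGAP1 (ENSG00000161800.13), the GTPase-activating subunit of centralspindlin, lies on the minus strand at chr12:49976923-50033136 with 17 exons. It had CPM values of 17.5, 18.6 and 18.4 in NC and of 11.3, 10.9 and 10.7 in siEIF1, a narrow spread in each group. Its log2 fold change was -0.72 (standard error 0.0729; edgeR, adjusted p = 1.67e-05), which is 1.65-fold lower and inside the limit. SHCBP1 (ENSG00000171241.9), on the minus strand at chr16:46578591-46621379 with 13 exons, fell the most of the 9 genes. It had CPM values of 7.90, 7.55 and 6.76 in NC and of 2.09, 1.55 and 1.31 in siEIF1. These rest on 191 to 215 counts in NC and 39 to 65 counts in siEIF1. The log2 fold change was -2.16 (95% interval -2.52 to -1.80; edgeR, adjusted p = 1.61e-06), or 22.3% of the NC mean.

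PRC1 (ENSG00000198901.14), the crosslinker of antiparallel microtubules in the central spindle, lies on the minus strand at chr15:90966040-90995629 with 15 exons. Its CPM values were 22.2, 26.1 and 25.1 in NC and 10.3, 11.2 and 9.58 in siEIF1. It had the highest counts of the 9 genes in the NC libraries, and its log2 fold change was -1.24 (standard error 0.0859; edgeR, adjusted p = 8.71e-07). Its exons overlap those of PRC1-AS1 on the other strand by 1892 bases and those of the same-strand gene ENSG00000284946 by 3181 bases. Neither of these genes passed the test, with log2 fold changes of -0.39 for PRC1-AS1 (edgeR, adjusted p = 0.158) and 0.024 for AC068831.18, as the files name the same-strand gene (edgeR, adjusted p = 0.860). How the counting divided reads between them is not given in the sources used here.

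The midbody genes CIT and CEP55 fell by similar amounts. CIT (ENSG00000122966.17), a kinase that holds the midbody together, lies on the minus strand at chr12:119685791-119877320 with 48 exons. It had CPM values of 5.53, 5.83 and 5.55 in NC and of 1.90, 2.13 and 2.44 in siEIF1. The groups stood well apart, and the log2 difference was -1.39 (standard error 0.143; edgeR, adjusted p = 2.10e-05). CEP55 (ENSG00000138180.16), which recruits the ESCRT proteins that sever the bridge, lies on the plus strand at chr10:93496612-93529092 with 9 exons. Its CPM values were 6.25, 8.19 and 6.26 in NC and 2.80, 2.72 and 2.18 in siEIF1, with NC replicate 2 above the other NC libraries. The log2 fold change was -1.43 (standard error 0.156; edgeR, adjusted p = 3.51e-05), or 37.2% of the NC mean.

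Among the chromosomal passenger genes, CDCA8 fell while INCENP did not pass the test. CDCA8 (ENSG00000134690.11), the subunit that helps target the complex to centromeres, lies on the plus strand at chr1:37692481-37709719 with 10 exons. It had CPM values of 6.17, 6.75 and 6.86 in NC and of 2.77, 1.96 and 2.34 in siEIF1. The log2 fold change was -1.48 (standard error 0.146; edgeR, adjusted p = 1.46e-05), or 2.79-fold lower. INCENP (ENSG00000149503.13), the scaffold that binds and activates AURKB, lies on the plus strand at chr11:62123998-62153169 with 19 exons. Its CPM values were 3.58, 3.51 and 4.28 in NC and 3.06, 2.96 and 4.15 in siEIF1, so the groups overlapped. INCENP was highest in replicate 3 of both groups and lower in siEIF1 at each replicate number. Its log2 fold change was -0.16 (95% interval -0.52 to 0.20; edgeR, adjusted p = 0.551), an interval that leaves out the fold change limit. INCENP had 86 to 124 counts in a library. CIT, with 59 to 166, and CDCA8, with 57 to 194, were called. Without siEIF1 replicate 3, the library with the highest INCENP value of its group, the log2 fold change was -0.33 (edgeR, adjusted p = 0.173), and over the remaining alternatives the adjusted p ran from 0.455 to 0.866. The lowest of these came with the replicate number as a block, at a log2 fold change of -0.17.

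The remaining subunits of the passenger complex were lower too. BIRC5, the survivin subunit, had a log2 fold change of -1.42 (edgeR, adjusted p = 4.64e-06), close to that of CDCA8. AURKB, the kinase itself, had a smaller one of -0.67 (edgeR, adjusted p = 0.00334) with CPM values of 5.50, 5.31 and 4.92 in NC and of 3.67, 3.23 and 2.95 in siEIF1. AURKC, a kinase of meiotic cells, had 5 to 14 counts and was not tested.

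Ratios between known partners were taken within each library, where the scaling of libraries has no part. They were computed on FPKM, which scales fragments by transcript length and library size, for 10 pairs, and compared by a two-sided exact permutation test. With 3 libraries against 3 the smallest p is 0.1, so no pair could pass 0.05, and the smallest p after Benjamini-Hochberg adjustment over the 10 pairs was 0.2 (exact permutation test). CDCA8 stood at 3.18, 3.56 and 2.96 times the level of INCENP in NC and at 1.66, 1.23 and 1.04 times in siEIF1. This ratio changed by -1.33 on the log2 scale and its groups did not overlap (exact permutation test, p = 0.1). The ratio of CDCA8 to BIRC5, by contrast, was 1.12, 0.934 and 1.04 in NC and 1.15, 0.762 and 1.01 in siEIF1, with overlapping groups and a difference of -0.098 (exact permutation test, p = 0.8).

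The pair that makes up centralspindlin also kept overlapping ratios. RACGAP1 to KIF23 was 1.78, 1.66 and 2.11 in NC and 2.10, 1.76 and 1.77 in siEIF1, with a log2 difference of 0.026 (exact permutation test, p = 1.0). SHCBP1, in contrast, went from 0.329, 0.295 and 0.268 times RACGAP1 in NC to 0.132, 0.104 and 0.0863 times in siEIF1. The log2 difference was -1.48 and the groups did not overlap (exact permutation test, p = 0.1). ANLN to ECT2 was lower in siEIF1 by 0.63 on the log2 scale, again with groups apart, and ECT2 to RACGAP1 was higher by 0.16 with groups apart (exact permutation test, p = 0.1 for each). CEP55 relative to PDCD6IP (ALIX), the protein it recruits to the midbody, was lower by 1.50 on the log2 scale in siEIF1 with groups apart (exact permutation test, p = 0.1).

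For PRC1 and KIF4A, the motor it recruits to the midzone, the log2 ratio was 2.11 ± 0.446 (SD, n = 3) in NC and 2.29 ± 0.076 in siEIF1. For CIT and KIF14, the motor that anchors it, the log2 ratio was -0.87 ± 0.123 (SD, n = 3) in NC and -0.72 ± 0.604 in siEIF1. In both pairs the groups overlapped, and the difference was smaller than the larger SD. CIT and KIF14 had low FPKM values, rounded to 2 decimals, so their ratio is coarse. Its difference was 0.152 on FPKM and 0.196 on CPM. The log2 ratio of INCENP to AURKB was -1.46 ± 0.235 (SD, n = 3) in NC and -0.96 ± 0.402 in siEIF1. This difference of 0.496 was above the SD of either group and ran from 0.267 to 0.640 with any 1 library left out, but the groups overlapped (exact permutation test, p = 0.2, adjusted p = 0.333).

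**Figure D3:**
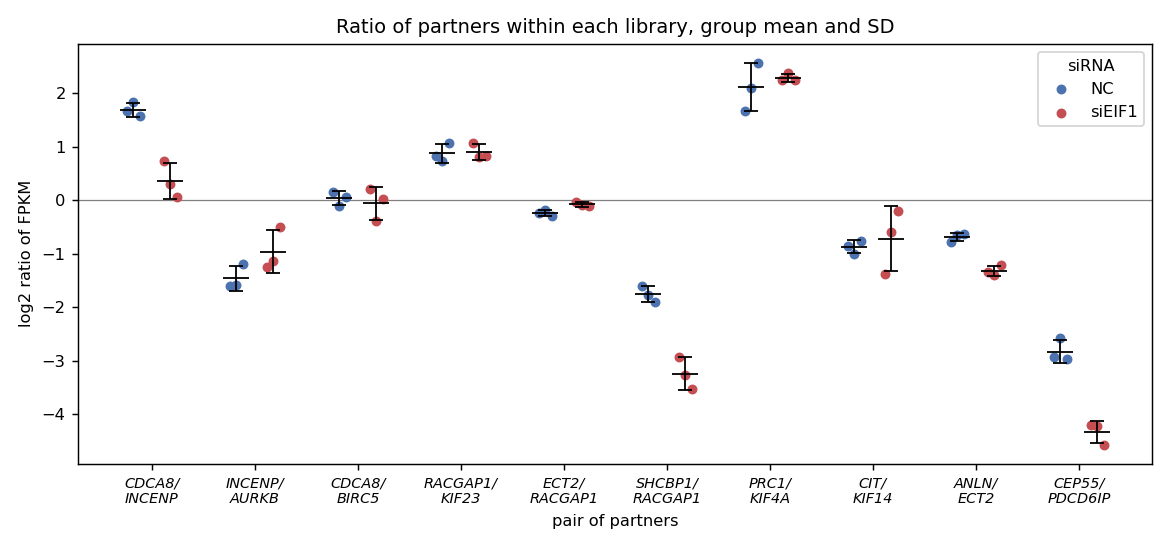
Log2 ratio of the FPKM of 10 pairs of partners in each library; points are libraries and black bars are the group mean and SD. NC and siEIF1 are apart for CDCA8/INCENP, ECT2/RACGAP1, SHCBP1/RACGAP1, ANLN/ECT2 and CEP55/PDCD6IP and overlap for the other 5 pairs.

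Per transcript length, PRC1 was the most abundant of the 9 RNAs in NC, at an FPKM of 3.63 ± 0.304 (SD, n = 3). RACGAP1 followed at 3.32 ± 0.112, ECT2 at 2.81 ± 0.143, CDCA8 at 2.25 ± 0.137, ANLN at 1.75 ± 0.164, CEP55 at 1.72 ± 0.263, SHCBP1 at 0.983 ± 0.0702, INCENP at 0.700 ± 0.0872 and CIT at 0.163 ± 0.00577. Neighbours in this order had separate ranges over the libraries except PRC1 and RACGAP1, and ANLN and CEP55. In siEIF1 the order began with RACGAP1 at 1.98 ± 0.0603 (SD, n = 3) and ECT2 at 1.88 ± 0.108, whose ranges overlapped, and PRC1 came next at 1.52 ± 0.0902. CDCA8, ANLN, CEP55 and INCENP then lay between 0.617 and 0.790, each overlapping its neighbour. INCENP, below SHCBP1 in NC, was above it in siEIF1, where SHCBP1 was at 0.213 ± 0.0513 and CIT at 0.06 ± 0.01. The FPKM values were rounded to 2 decimals. The SDs of CIT, whose values were 0.16 to 0.17 in NC and 0.05 to 0.07 in siEIF1, are thus no larger than the rounding step.

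How far CIT lay below the other genes depends on the length used, but its place as the lowest did not. If the library size behind the FPKM is the sum of the counts, counts and FPKM imply a length of 34920 bases for CIT. This is 1.22 times the 28605 bases of all its exons merged (GENCODE release 44). The same factor of 1.22 to 1.23 held for the other 8 genes, so the implied lengths were proportional to the merged exons. The canonical CIT transcript has 8736 bases. Divided by canonical lengths, the CPM per kilobase in NC was 0.646 for CIT and 0.921 for INCENP, and the order of the 9 genes was the same.

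**Figure D4:**
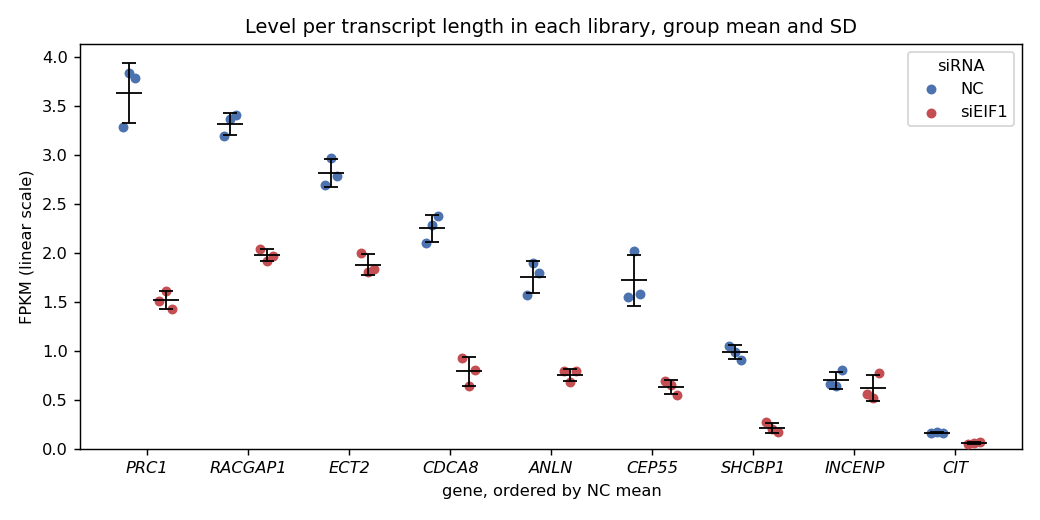
FPKM of the 9 genes in each library on a linear scale, ordered by the NC mean; points are libraries and black bars are the group mean and SD. PRC1 leads in NC, at 3.63, and RACGAP1 and ECT2 lead in siEIF1.

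Other genes of cytokinesis were taken by role, also with earlier results of these data known. All 6 genes of the list of midzone motors and PLK1, which work on the central spindle in mitosis, fell with an adjusted p under 0.05. Over all tested genes 10.4% did so. Of the 6, 4 were called lower (median log2 fold change -1.24), against 1.31% of all tested genes. PLK1, the kinase that phosphorylates RACGAP1 so that ECT2 can bind, was at -1.10 (edgeR, adjusted p = 8.75e-05), KIF4A at -1.43 (edgeR, adjusted p = 1.91e-04) and KIF23 at -0.75 (edgeR, adjusted p = 2.16e-04). KIF14 was at -1.55 (edgeR, adjusted p = 3.37e-04).

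Of 13 genes of RhoA signalling and the contractile ring, 3 rose and 1 fell with an adjusted p under 0.05, and 9 did not pass (median log2 fold change 0.047). Over all tested genes 10.2% rose and 10.4% fell by this rule, 20.6% in all. RHOA, the GTPase that ECT2 activates, was at 0.049 (95% interval -0.051 to 0.15). The gene that fell was DIAPH3, a formin that builds actin filaments, at -0.58 (edgeR, adjusted p = 7.20e-05), while the myosin genes MYH9, at 0.39 (edgeR, adjusted p = 0.00341), and MYL6, at 0.35 (edgeR, adjusted p = 0.00398), rose. Of the 8 septins, filament-forming GTPases of the ring, 1 rose and 7 did not pass. SEPTIN9 was at 0.28 (edgeR, adjusted p = 0.00121), SEPTIN7 at 0.14 (edgeR, adjusted p = 0.0622) and SEPTIN6 at 0.37 (edgeR, adjusted p = 0.104).

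Of the 21 genes of ESCRT abscission, which cut the bridge, 3 rose, 1 fell and 17 did not pass, a share of passing genes near the 20.6% over all tested genes (median log2 fold change 0.0061, from -0.183 to 0.165). PDCD6IP, the direct partner of CEP55, was at 0.079 (95% interval -0.015 to 0.17; edgeR, adjusted p = 0.236). CHMP1B, at -0.16 (edgeR, adjusted p = 0.0303), CHMP3, at 0.15 (edgeR, adjusted p = 0.0381), and CHMP1A, at 0.165 (edgeR, adjusted p = 0.0448), had the smallest p-values of this list. These lists were described by their counts and medians, and no test of one list against another was made.

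**Figure D5:**
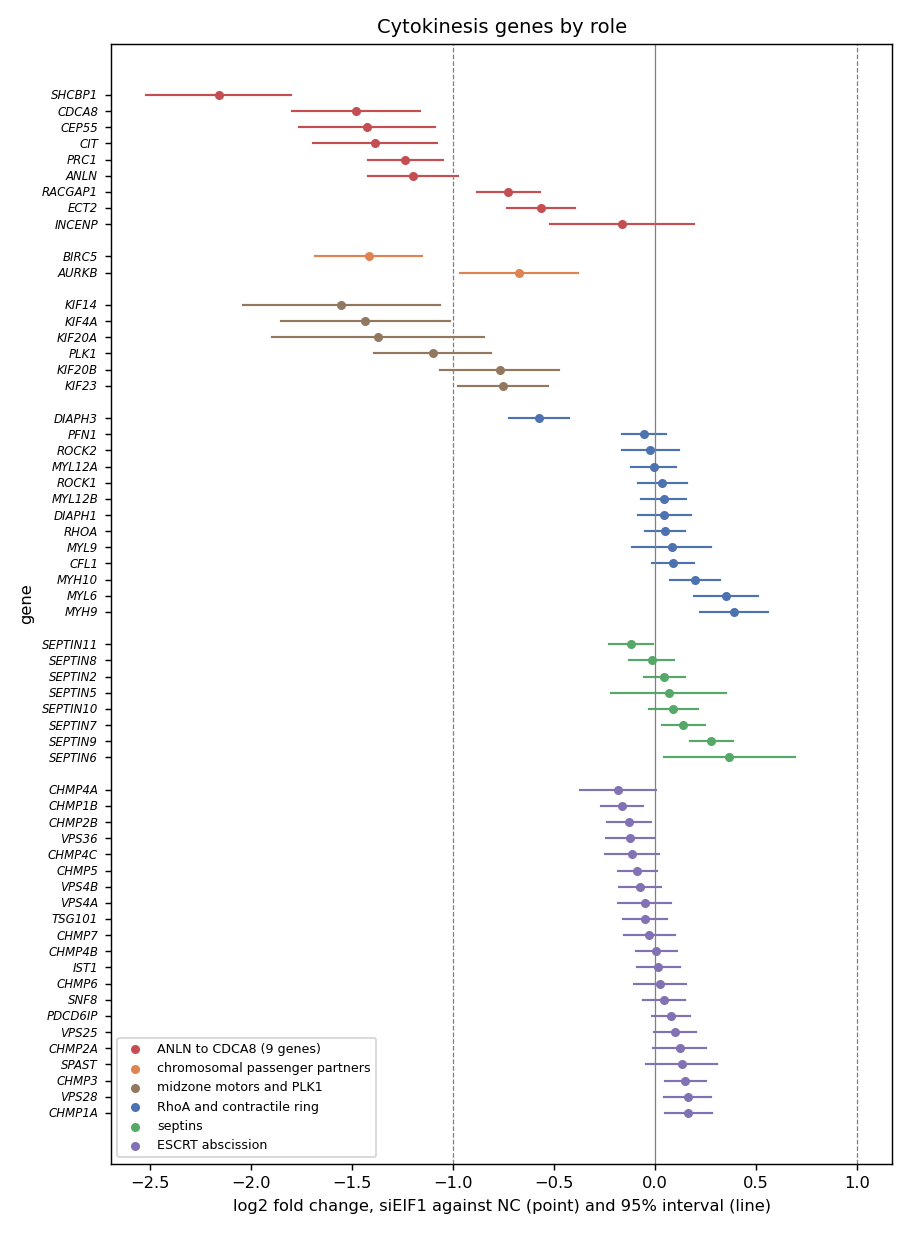
Log2 fold change of siEIF1 against NC (points) with its 95% interval (lines) for cytokinesis genes in groups by role; dashed lines mark fold changes of 0.5 and 2. The points of the 9 genes, the passenger partners and the midzone motors lie below 0, with the interval of INCENP crossing it, while septins, ESCRT genes and most contractile ring genes lie near 0, and DIAPH3 is at -0.58.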

How the data were processed

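RNA-seq of 6 ARPE-19 libraries (3 NC, 3 siEIF1) was used, with groups and replicate numbers read from the sample titles. The authors trimmed reads with FASTX-Toolkit, aligned them to GRCh38 with HISAT2 and made counts per gene from reads mapping to 1 place, which they deposited unnormalized. Libraries were strand-specific. The authors also deposited FPKM rounded to 2 decimals. The counting program, its strand setting and the annotation release are not given in the sources used here. The 9 genes and the lists by role were chosen with earlier results of these data known, and so carry no independent support.

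Counts were fitted with edgeR 4.0.16 in R 4.3.3 (TMM, filterByExpr, quasi-likelihood test, Benjamini-Hochberg over 16749 genes). Standard errors came from the F statistic. CPM values were scaled by TMM. Ratios were tested with scipy 1.17.1. On simulated counts for 16548 genes, edgeR recovered 200 of 200 changed genes with 2 false calls. Recovery of genes near the 2-fold limit was not tested separately. Alternatives were RLE, other count filters, DESeq2 1.42.0, limma 3.58.1 on log2(FPKM + 1) or log2(FPKM + 0.1), other thresholds, the replicate number as a block, CPM for ratios and leaving out each library. An order of levels by canonical transcript length was added after the data were seen. Named are the 9 genes, EIF1, the partners in the pairs, up to 3 genes of each list with the smallest p-values and 5 genes with the nearest profile. AURKC, RPE65, BEST1, OTX2, MITF, TYR, LRAT, PMEL, RHOA, PRC1-AS1 and AC068831.18 were named after their values were seen. Coordinates and transcripts came from GENCODE release 44 on GRCh38, where 25642 of 30618 gene IDs matched with their version. Replicates of a group differed by more than sampling noise (chi-square per degree of freedom 3.00 to 14.1).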

Additional observations from a re-analysis of the deposited data

How the results depend on the processing

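Under 13 other fits, all 117 values of the 9 genes kept their direction and 110 kept their side of the threshold. The exceptions came from limma on FPKM. With log2(FPKM + 1), where genes of low FPKM change little by construction, 0 of the 9 genes were called and the median was -0.648. ANLN was then at -0.648, CDCA8 at -0.863, CEP55 at -0.734, CIT at -0.134, PRC1 at -0.878 and SHCBP1 at -0.709, and 8 genes kept an adjusted p under 0.05. With log2(FPKM + 0.1), CIT was at -0.721 and 5 genes were called. Over all tested genes, 286 were called, against 20 and 164 with these pseudocounts.

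The replicate block gave 6 called genes and a median of -1.235, and it changed the call of none of the 9. Deviations of libraries with the same number correlated at 0.149, 0.0946 and 0.128, and each library correlated best with its own number, but not every pair passed 0.1, so the numbers were not taken as pairs. With any 1 library left out, 6 genes were called. The log2 ratio difference of CDCA8/BIRC5 then ran from -0.226 to 0.0695, of RACGAP1/KIF23 from -0.0575 to 0.125, of PRC1/KIF4A from -0.0364 to 0.409 and of CIT/KIF14 from -0.111 to 0.482. Each of these 4 changed sign, without siEIF1 replicate 2, without NC replicate 2 or siEIF1 replicate 1, without NC replicate 1, and without siEIF1 replicate 3, respectively. The cause was not tested. Among the 9 genes the lowest counts in a library were 39 for SHCBP1, 57 for CDCA8 and 59 for CIT.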

Other observations

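The profile over the 6 libraries, as log2 CPM minus the NC mean, was compared between the median of the 9 genes and every other gene whose mean count reached 50. The 5 nearest were XRCC3, a recombination gene (root mean square distance 0.064), BRIP1, a DNA helicase of cross-link repair (0.066), RPA2, which binds single-stranded DNA (0.084), RFC4, a clamp loader subunit (0.087), and KNTC1, a kinetochore protein (0.094). Among the 9 genes themselves, ANLN (0.064) and PRC1 (0.101) lay nearest to the median profile, and SHCBP1 (0.682) and INCENP (0.768) farthest. The log2 fold changes of the 5 nearest genes ran from -1.30 to -1.14, and the distance takes in this difference between the groups.

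Within the NC group, 8 of the 9 genes were below their group mean in replicate 1 and 8 were above it in replicate 2, with median deviations of -0.077 and 0.048 on the log2 scale. Within the siEIF1 group, 6 genes were above their group mean in replicate 1, 2 in replicate 2 and 4 in replicate 3. In siEIF1 replicate 3, INCENP was above its group mean by 0.305 and SHCBP1 was below it (deviation -0.295). In siEIF1 replicate 1, SHCBP1 was above its group mean by 0.357 and INCENP was below it (deviation -0.129).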
